A study of Sus scrofa with 32 samples.

Results

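The mitochondrial genome of the pig encodes 2 ribosomal RNAs, 12S and 16S, and the counts assigned to them in liver and fat tissue are described here. They are 2 of the 31908 genes in the deposited tables, listed as ENSSSCG00000018061 (12S) and ENSSSCG00000018063 (16S). The rule names them by identifier. The reference name table holds neither identifier, so the names 12S and 16S come from the definition of the set and were not checked by name.

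RNA was sequenced from liver and fat tissue of female Zlotnicka White pigs at 180 days of age. The pigs came from several farms, diet and housing were common to both groups, and the labels name no treatment. They were ranked after slaughter by measures of fatness, and the groups with high (HFD) and low (LFD) fat deposition were sequenced, giving 8 libraries per group and tissue and 32 in all. The labels hold the fat group in a field named shear force, and whether tissues of a shared replicate number were taken from 1 pig is not told.

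The 12S rRNA is the RNA core of the small subunit of the mitochondrial ribosome, and the 16S rRNA is that of the large subunit. This ribosome translates the mRNAs of the mitochondrial genome, which encode subunits of the respiratory chain and of ATP synthase. Both rRNAs lie at the start of a long transcript of the heavy strand that is cut at the tRNAs between the genes. The kit used here selects RNA by its A tail. Mitochondrial mRNAs carry such tails in mammals, while the tails of mitochondrial rRNAs are short, so a count of rRNA in these libraries measures the rRNA that was carried through this selection and not the full amount in the cell.

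In the RefSeq annotation of Sscrofa11.1, the build named by the study, 12S rRNA covers positions 1246 to 2205 of chromosome MT on the plus strand and 16S rRNA covers positions 2274 to 3844 on the same strand. Their lengths are 960 and 1571 bases, and the gene for tRNA-Val fills the gap between them at positions 2206 to 2273. Neither is translated, so they have no coding exons. Adenine made up 36.6% of 12S and 38.6% of 16S. Because the kit captures runs of A, the longest run of A inside each rRNA is shown in capitals within its surroundings, at positions 1540 to 1569 for 12S and 3301 to 3329 for 16S, followed by the last 30 bases of each gene.
12S, longest A run: gagtgtttaagAAAAAAAAtcacaatagag
16S, longest A run: gaggcgggaatAAAAAAAtaagacgagaa
12S, last bases: taagcatactggaaagtgtgcttggattac
16S, last bases: cataataaatccagccctagaacagggcac
The run was 8 bases in 12S and 7 in 16S. Across the 13 mitochondrially encoded mRNA genes the longest run was between 3 and 7 bases, with a median of 5. Whether these runs bear on the counts was not tested. Stretches of both rRNAs also occur in the nuclear genome. The 12S sequence aligned to chromosome 4 over 505 bases at 98.8% identity and to chromosome X over 376 bases at 99.2% identity. The 16S sequence aligned to chromosome 4 over 852 bases at 98.4% identity and to chromosome X over 574 bases at 96.3% identity. How the authors' counting shared reads between such copies is not given in the sources used here, so the counts of both rRNAs are uncertain to that extent.

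Total counts ran from 19837882 to 30457374 in liver, where 2 runs per library were added, and from 9409976 to 19484621 in fat. The fewest counts in fat were in HFD replicate 2 (9409976) and LFD replicate 4 (13013271). Next came fat HFD replicate 3 with 14951679, and liver LFD replicate 7 had 22231931. Whether depth bears on the values of these libraries was not tested. The tissue labels were checked against defining markers. Of 10 hepatocyte markers 9 were found, and they held 9.84% to 17.0% of the counts in liver and 0.0163% to 0.0505% in fat. All 8 adipocyte markers were found, and they held 0.881% to 6.27% in fat and 0.0111% to 0.174% in liver. In liver LFD replicate 7, fat HFD replicate 2 and fat LFD replicate 4 the 10 most counted genes took over 40% of counts. The main differences in the share of the rRNAs are given with and without these 3 libraries.

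Mitochondrial rRNA was a small part of every library, and it was higher in fat tissue than in liver. In the 16 livers, 12S held between 0.00618% and 0.132% of the counts with a median of 0.0149%, and 16S between 0.00657% and 0.130% with a median of 0.0139%. In the 16 fat libraries, 12S held between 0.0225% and 0.169% with a median of 0.0353%, and 16S between 0.0255% and 0.250% with a median of 0.0626%. All 16 fat libraries lay above the liver median for each rRNA, and the highest liver value was that of LFD replicate 7. The geometric mean of the rRNA share, 12S and 16S added, was 3.38-fold higher in fat (log2 difference of liver minus fat -1.76, standard error 0.30, permutation test, two-sided, p = 2e-05, the smallest that 100000 resamples can give, 5e-05 after Benjamini-Hochberg adjustment over 5 tissue tests). Without the 3 libraries over 40% the ratio was 3.61, and each of the 14 fat libraries, from 0.0528% upward, lay above each of the 15 livers, which reached 0.0527%. In these bulk samples fewer cells of a type and less RNA per cell cannot be told apart. The tissues were sequenced in separate lanes, so tissue and lane cannot be told apart either.

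**Figure D1:**
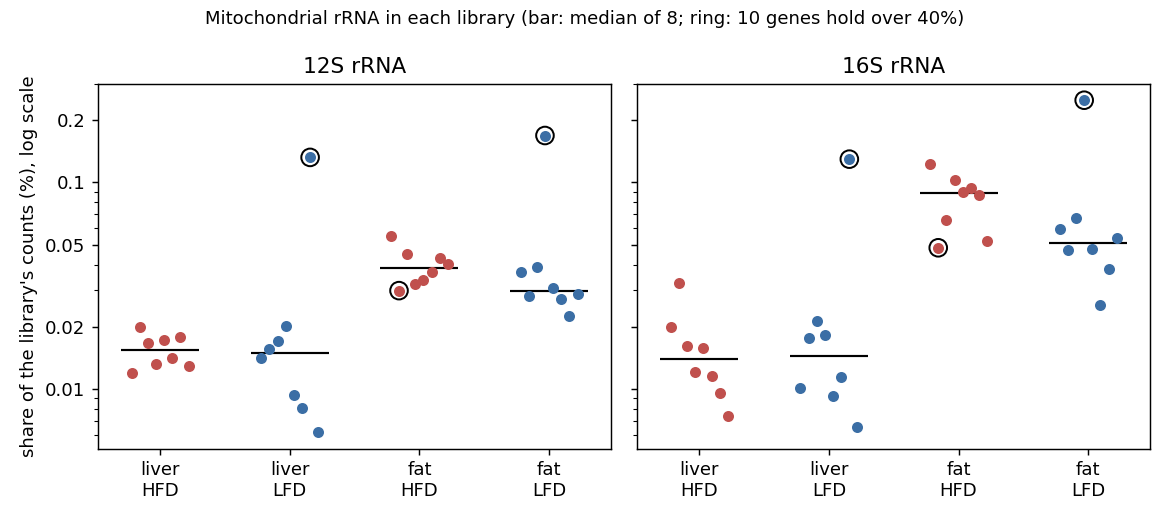
Share of the library's counts held by 12S and 16S rRNA (percent, log axis) in each of the 32 libraries by tissue and fat group, with 8 libraries per group, bars at the group medians and rings around the 3 libraries in which 10 genes held over 40% of the counts. Fat libraries lie above most livers, and liver LFD replicate 7 and fat LFD replicate 4 stand above their groups for both rRNAs, while the ring of fat HFD replicate 2 lies at the low end of its group.

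The 13 mitochondrial mRNAs were higher in fat as well, with a median share of 10.7% against 4.78% in liver. For each count on these mRNAs, the rRNAs were 1.70-fold higher in fat, which did not pass the test with all libraries (permutation test, p = 0.0741 before and after adjustment). Without the 3 libraries over 40% this ratio was 1.55-fold higher in fat (permutation test, p = 0.0008 before and after adjustment).

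The fat to liver ratio was larger for 16S than for 12S. The 16S share was 4.37-fold higher in fat (permutation test, p = 2e-05, 5e-05 after adjustment) and the 12S share 2.42-fold (permutation test, p = 6e-05, 7.5e-05 after adjustment). The number of 16S counts per 12S count, which does not depend on the library total, ran from 0.535 to 1.67 in liver (median 0.976) and from 0.938 to 3.17 in fat (median 1.67). This ratio was 1.80-fold higher in fat (permutation test, p = 4e-05, 6.67e-05 after adjustment), and 15 of 16 fat libraries lay above the liver median. The ranges of the tissues overlapped, with 8 fat libraries above every liver. Without the libraries over 40% the fat to liver ratios were 4.70 for the 16S share and 2.55 for the 12S share. For the number of 16S counts per 12S count it was then 1.84.

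Per length, both rRNAs were among the lowest of the 15 mitochondrial RNAs counted. The unit here is counts per kilobase of gene and per 1000000 counts of the library, with medians over the 15 livers and 14 fat libraries that were not over 40%. In liver the level of 12S was 147.2 (range 64.4 to 210.6) and that of 16S was 76.7 (41.8 to 207.6), the last of the 15. The 13 mRNAs had levels from 143.2 for ATP8, a subunit of ATP synthase, to 15064 for COX3, a subunit of cytochrome oxidase, with a median of 1873. In fat the level of 12S was 367.3 (234.4 to 572.4), the last of the 15, and that of 16S was 398.4 (162.5 to 781.6), next to last. The mRNAs there ran from 437.1 for ATP8 to 28010 for COX3, with a median of 3222. The ranges of 12S, 16S and ATP8 overlapped in each tissue, so the order among these 3 is not separated by the spread between libraries, whereas in liver the lowest value of 12 mRNAs, all but ATP8, lay above the highest value of either rRNA. The median mRNA level was 12.7 times that of 12S and 24.4 times that of 16S in liver, and 8.77 and 8.09 times in fat.

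**Figure D2:**
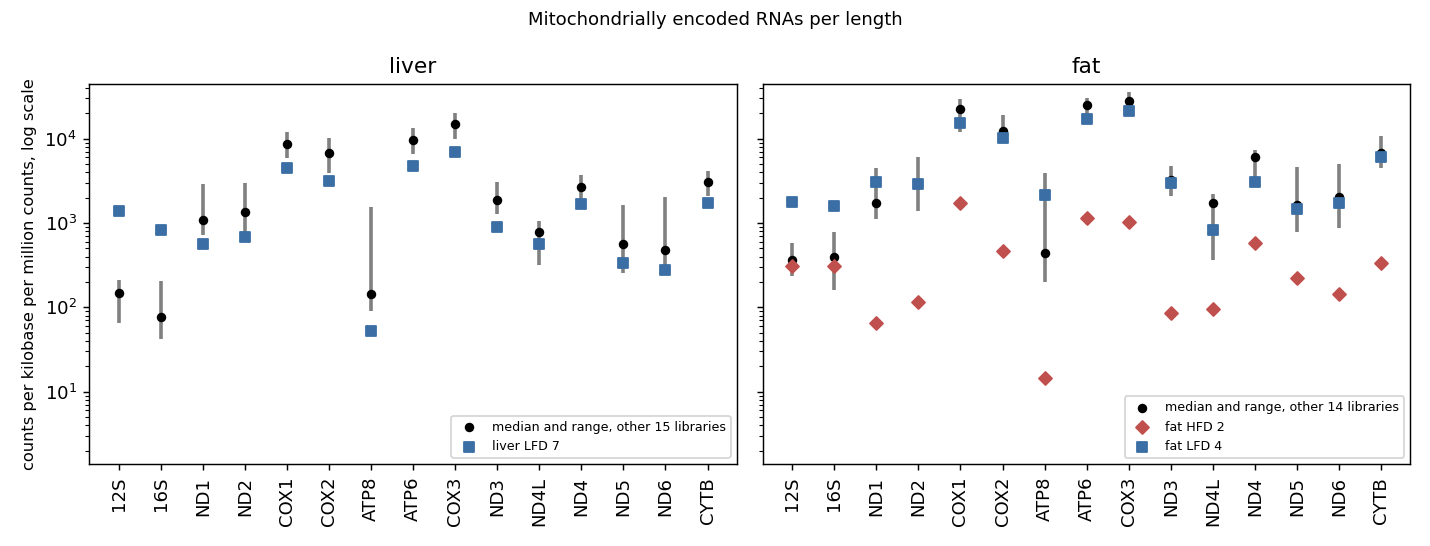
Counts per kilobase and per 1000000 counts (log axis) of 12S, 16S and the 13 mitochondrially encoded mRNAs, with liver on the left and fat on the right, dots and lines giving the median and range of the libraries not over 40% (15 livers, 14 fat) and squares and diamonds the libraries over 40%. In liver LFD replicate 7 both rRNAs stand above the range of the other livers while the mRNAs stand below their medians, and in fat HFD replicate 2 the rRNAs stay inside the range of the others while the mRNAs fall below it.

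The 3 libraries over 40% were examined for the part that the rRNAs took in them. Neither rRNA was among the 10 most counted genes in any of the 32 libraries: the ranks of 12S ran from 44 to 1748 and those of 16S from 29 to 1657. In liver LFD replicate 7 the 10 most counted genes held 47.2% of the counts, against a median of 24.1% in the other 15 livers, and 12S and 16S held 0.132% and 0.130%, at ranks 68 and 69. In fat HFD replicate 2 the 10 genes held 80.9%, against a median of 24.9% in the 14 fat libraries not over 40%, and 12S and 16S held 0.0299% and 0.0483%, at ranks 75 and 46. In fat LFD replicate 4 the 10 genes held 42.2%, and 12S and 16S held 0.169% and 0.250%, at ranks 44 and 29. With both rRNAs left out of the table, the share of the 10 genes rose by at most 0.178 percentage points in any library, and all 3 libraries stayed over 40%. They stayed over 40% as well with the 13 mitochondrial mRNAs left out. Relative to the other libraries of its tissue, the rise in rRNA equalled 1.02% of the rise in the 10 genes in liver LFD replicate 7 and 1.84% in fat LFD replicate 4, while in fat HFD replicate 2 the rRNA share, 0.0782%, was below the median of the others, 0.101%.

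Most of these counts were on 6 genes to which the reference table gives no name. They were picked after their values were seen, as genes with over 1% of a library and over 4 times their tissue's median share. Together they held 37.4% of liver LFD replicate 7, 77.9% of fat HFD replicate 2 and 34.4% of fat LFD replicate 4, against medians of 5.44% in the other livers and 9.37% in the other fat libraries. ENSSSCG00000047299 held 22.9% of liver LFD replicate 7, 7.18% of fat HFD replicate 2 and 14.2% of fat LFD replicate 4, against 0.161% to 1.38% in the other livers and 0.300% to 0.9502% in the other fat libraries. ENSSSCG00000041596 held 7.41%, 45.2% and 10.2%, against 0.154% to 4.80% in the other livers and 4.54% to 10.4% in the other fat libraries. The other 4 unnamed genes held 1.01% to 19.3% each. With the 6 genes left out, the 10 most counted genes held under 40% in all 32 libraries. That fall is largely set by the way the 6 genes were picked and is a description only. The named genes among the 10 most counted were the plasma protein genes ALB (6.71%, tissue median 10.3%), TF (1.24%, 1.66%), APOE (1.01%, 1.38%) and AHSG (0.840%, 0.975%) in liver LFD replicate 7. In fat HFD replicate 2 they were the fatty acid synthesis genes FASN (1.69%, tissue median 2.15%) and SCD (0.5003%, 2.71%) and the collagen genes COL3A1 (0.411%, 1.16%) and COL1A1 (0.368%, 0.337%). In fat LFD replicate 4 they were the cytochrome oxidase genes COX1 (2.38%, tissue median 3.38%) and COX3 (1.68%, 2.15%) with SCD (2.06%), FASN (1.73%) and COL3A1 (1.19%).

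**Figure D3:**
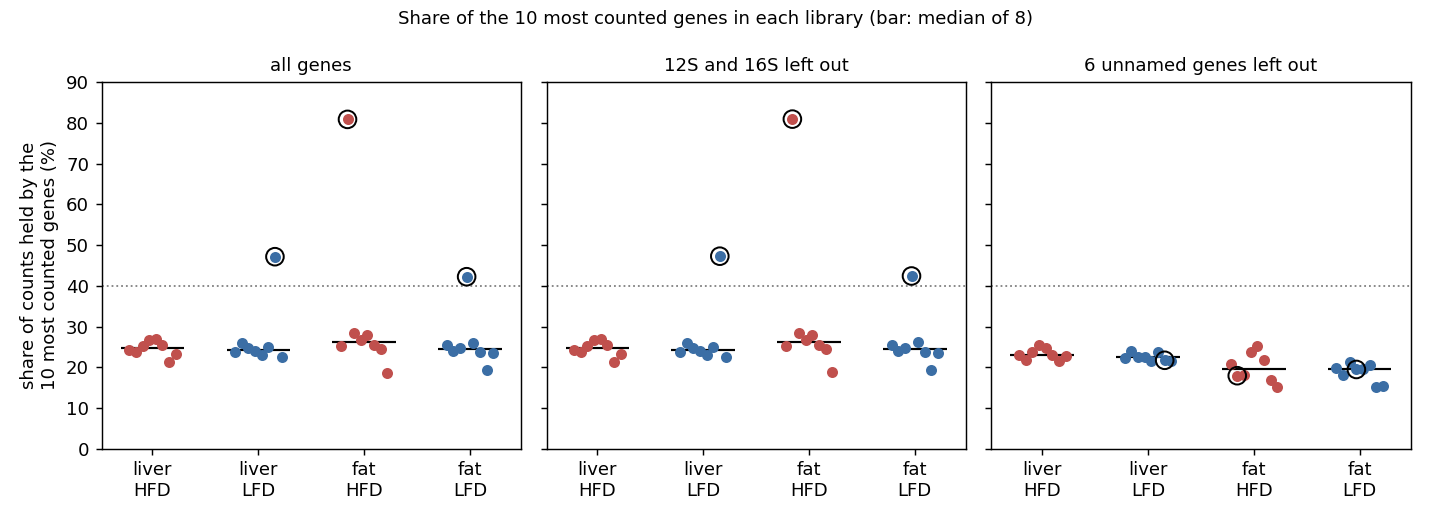
Share of counts held by the 10 most counted genes (percent) in each of the 32 libraries, from the whole table on the left, without 12S and 16S in the middle and without the 6 unnamed genes on the right, with bars at the medians of 8 libraries, a dotted line at 40% and rings around the 3 libraries over it. The ringed libraries stay at 42.4% to 81.0% without the rRNAs and fall among the others without the 6 unnamed genes. These genes were picked for their high shares, which largely sets that fall.

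Although the rRNAs did not make up these libraries, they stood apart there from the mitochondrial mRNAs. For every 1000 counts on the 13 mitochondrial mRNAs, 12S and 16S together had 106.3 counts in liver LFD replicate 7, against 3.12 to 10.4 in the other 15 livers. The number was 120.3 in fat HFD replicate 2 and 51.4 in fat LFD replicate 4, against 5.37 to 15.3 in the other 14 fat libraries. All 3 libraries thus lay above every other library of their tissue, by 18.9, 13.3 and 5.68 times the median. These 3 are single libraries chosen by their 10 most counted genes, so the difference carries no test. The same held for the counts that remained outside the 6 unnamed genes: of these, the rRNAs held 0.418% in liver LFD replicate 7, against 0.0133% to 0.0564% in the other livers, and 0.354% in fat HFD replicate 2 and 0.639% in fat LFD replicate 4, against 0.0571% to 0.197% in the other fat libraries. The mitochondrial mRNAs held 3.93% of the remaining counts in liver LFD replicate 7 (others 3.45% to 7.35%), 12.4% in fat LFD replicate 4 and 2.95% in fat HFD replicate 2 (others 8.83% to 16.3%).

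In liver LFD replicate 7 the level of 12S was 9.36 times and that of 16S 10.8 times the median of the other livers, while the 13 mRNAs were at 0.371 to 0.720 times theirs. In fat LFD replicate 4, 12S was at 4.79 times and 16S at 4.00 times the median, each above the range of the other 14 fat libraries. Of the mRNAs ATP8 was at 4.94 times and ND1 at 1.81 times, with the other 11 at 0.479 to 0.991 times. Both ATP8 (2158, others 201 to 3941) and ND1 (3105, others 1124 to 4481) stayed inside the range of the other fat libraries. ND1, a subunit of complex I, is the mRNA encoded next to 16S apart from a tRNA. Whether that place bears on its value was not tested, and in liver LFD replicate 7 ND1 was at 0.511 times its median. In fat HFD replicate 2 both rRNAs were at 0.849 and 0.771 times the median and the 13 mRNAs at 0.0269 to 0.138 times. These levels are per total counts, of which the 6 unnamed genes held 77.9% in that library. Of the counts outside those genes, its rRNA share was 3.16 times the median of the other fat libraries. Its share of the mitochondrial mRNAs was 0.241 times theirs. The number of 16S counts per 12S count was 0.981 in liver LFD replicate 7, 1.61 in fat HFD replicate 2 and 1.48 in fat LFD replicate 4, inside the range of the other libraries of each tissue. Markers of the tissues are given as shares of the counts outside the 6 unnamed genes. Hepatocyte markers held 15.7% of these in liver LFD replicate 7, within the 15.4% to 18.1% of the other livers. Adipocyte markers held 3.99% in fat HFD replicate 2 and 5.41% in fat LFD replicate 4, within the 2.66% to 6.78% of the other fat libraries. Hepatocyte markers held 0.223% in fat HFD replicate 2, against 0.0182% to 0.0545% in the other fat libraries. Nuclear-encoded mitochondrial ribosomal proteins held 0.105% of the same counts in fat HFD replicate 2, against 0.250% to 0.377%. The part of the differences in fat HFD replicate 2 in its rRNA values was not tested. The liver runs, taken apart, gave close rRNA values. The share in liver LFD replicate 7 was 0.265% in run 1 and 0.261% in run 2, and over the 16 livers the share in run 2 was 0.913 to 1.07 times that in run 1.

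**Figure D4:**
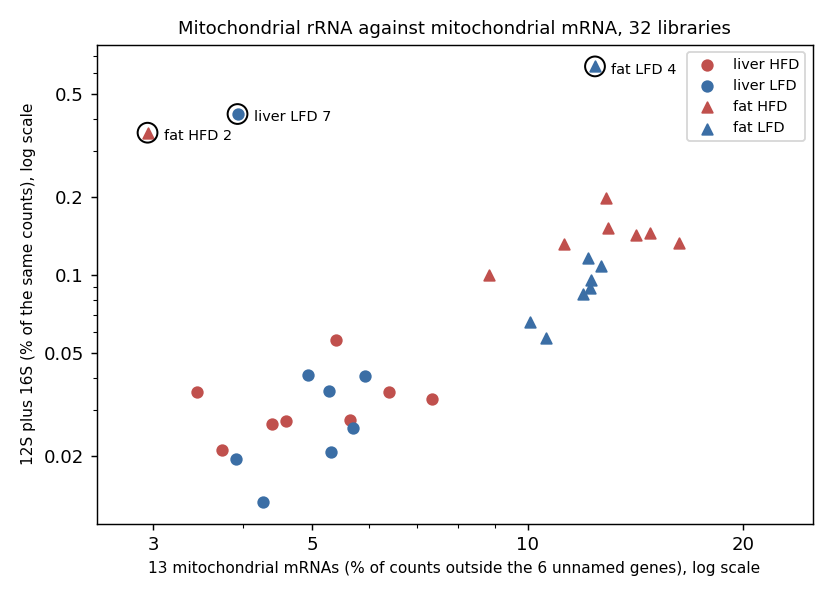
Share of 12S plus 16S against that of the 13 mitochondrially encoded mRNAs in each of the 32 libraries (circles liver, triangles fat), each as percent of the counts outside the 6 unnamed genes, on log axes. The 3 ringed libraries, named beside their points, lie above all others, at 0.418%, 0.354% and 0.639% rRNA.

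High and low fat deposition did not separate the rRNAs in liver. In HFD livers the lowest, median and highest 12S shares were 0.0119%, 0.0154% and 0.0200%, and in LFD livers they were 0.00618%, 0.0149% and 0.132%. For 16S the lowest, median and highest shares were 0.00736%, 0.0139% and 0.0326% in HFD livers, against 0.00657%, 0.0145% and 0.130% in LFD livers. The groups overlapped, and the LFD group held the highest and the lowest liver for each rRNA. HFD livers had an rRNA share of 0.0311% ± 0.00977 (SD, n = 8), LFD livers 0.0559% ± 0.0838 (SD, n = 8), and the log2 difference of HFD minus LFD was -0.14 (standard error 0.49, exact permutation test, two-sided, p = 0.853, 0.93 after adjustment over 10 tests of fat group). Without LFD replicate 7 the difference was 0.28 (exact permutation test, p = 0.311). In the edgeR fit over all genes, with TMM normalization, the log2 fold change was -1.23 for 12S (standard error 0.66, adjusted p = 0.839) and -1.21 for 16S (standard error 0.68, adjusted p = 0.839), and without LFD replicate 7 it was 0.21 and 0.17. Among all 13051 genes tested in liver, 0% passed an adjusted p of 0.05 in edgeR, and 754 had an unadjusted p under 0.05.

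In fat, most HFD libraries had more mitochondrial rRNA than most LFD libraries, but the difference did not pass the test with all 16 libraries. In HFD fat the lowest, median and highest 12S shares were 0.0299%, 0.0385% and 0.0550%, and in LFD fat they were 0.0225%, 0.0297% and 0.169%. For 16S the lowest, median and highest shares were 0.0483%, 0.0886% and 0.123% in HFD fat, against 0.0255%, 0.0508% and 0.250% in LFD fat. The highest fat library was LFD replicate 4 for both rRNAs, and 7 of 8 HFD libraries lay above the LFD median of the rRNA share. Its mean was 0.122% ± 0.0301 (SD, n = 8) for HFD fat, while LFD fat had 0.121% ± 0.122 (SD, n = 8). The log2 difference of HFD minus LFD was 0.33 (standard error 0.35, exact permutation test, two-sided, p = 0.404, 0.93 after adjustment). It was 0.46 for 16S and 0.060 for 12S, and neither passed (exact permutation test, p = 0.248 and 0.93). The number of 16S counts per 12S count was 1.32-fold higher in HFD fat (exact permutation test, p = 0.0544, 0.544 after adjustment). Without the libraries over 40% it was 1.36-fold higher (exact permutation test, p = 0.0612, 0.122 after adjustment).

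Without the libraries over 40%, a choice made after their values were known, HFD fat had 1.64 times the rRNA share of LFD fat. The means were 0.129% ± 0.0262 (SD, n = 7) for HFD fat, against 0.0788% ± 0.0188 (SD, n = 7) for LFD fat, and the log2 difference was 0.72 (standard error 0.17, exact permutation test, two-sided, p = 0.00233, 0.0117 after adjustment over 10 tests). All 7 HFD libraries lay above the LFD median, and 5 of 7 LFD libraries lay below every HFD library. The difference was 0.87 for 16S (exact permutation test, p = 0.00408, 0.0136 after adjustment) and 0.42 for 12S (p = 0.0122, 0.0305 after adjustment). The fat libraries left out were HFD replicate 2, the lowest HFD rRNA share (0.0782%), and LFD replicate 4, the highest LFD share (0.419%). Leaving them out could only widen the HFD excess in the shares, so these p-values do not carry their usual meaning. Set against the mitochondrial mRNAs of the same library the rRNAs were 1.496-fold higher in HFD fat (exact permutation test, p = 0.00233, 0.0117 after adjustment). With all fat libraries that ratio was 1.58-fold higher in HFD fat and did not pass (exact permutation test, p = 0.342, 0.93 after adjustment). In that ratio HFD replicate 2 was the highest HFD library and LFD replicate 4 the highest LFD library. For the rRNA share the call rests on LFD replicate 4, since leaving out that library alone gave a log2 difference of 0.63 (exact permutation test, p = 0.00684). In liver the same step gave no measure past the threshold.

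**Figure D5:**
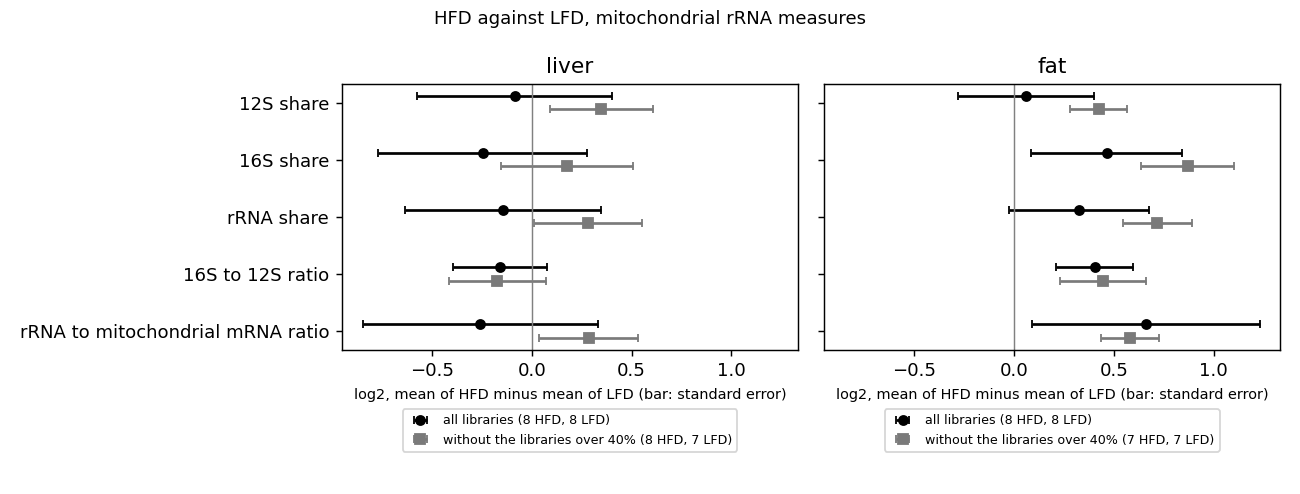
Log2 difference of HFD minus LFD means, with standard errors, for 5 measures of mitochondrial rRNA in liver and fat, from all 16 libraries per tissue (circles) and without the libraries over 40% (squares, 8 HFD and 7 LFD livers, 7 HFD and 7 LFD fat libraries). In fat the squares of the shares lie at 0.42 to 0.87 with shorter bars than the circles, which lie at 0.060 to 0.46.

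The fits over all genes gave neither rRNA as changed in fat with edgeR. The log2 fold change was -0.21 for 12S (standard error 0.48, adjusted p = 0.972 from edgeR), where the difference of mean log2 shares had the opposite sign, and 0.19 for 16S (standard error 0.47, adjusted p = 0.974 from edgeR). Of 13082 genes tested in fat 0% passed, with 870 at an unadjusted p under 0.05. DESeq2 called 16S higher in HFD fat, by 0.97 on the log2 scale (standard error 0.25, adjusted p = 0.0443 from DESeq2). It gave 0.68 for 12S (adjusted p = 0.265 from DESeq2), and 0.226% of 22108 genes passed. Those are all genes with any count, since DESeq2 was run without the low-count filter used for edgeR. Any gene that it left without an adjusted p is in that number, so the shares of the fits are over unlike sets. In that fit DESeq2 had replaced the counts of both rRNAs in LFD replicate 4 as outlying, and without the replacement it gave 0.20 for 16S and -0.20 for 12S, with no p-value. With the libraries over 40% left out, edgeR gave 0.91 for 16S (adjusted p = 0.439) and 0.47 for 12S (adjusted p = 0.669), neither past the threshold over all genes.

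Whether the fat group difference itself differed between liver and fat was tested in 1 model over all 32 libraries. The interaction, fat minus liver, was 1.05 on the log2 scale for 12S (standard error 0.80, adjusted p = 0.918 from edgeR) and 1.42 for 16S (standard error 0.81, adjusted p = 0.865 from edgeR). Of 14324 genes tested 0% passed, with 896 at an unadjusted p under 0.05. Without the libraries over 40% the terms were 0.26 and 0.74 (adjusted p = 0.931 and 0.831 from edgeR).

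The amounts of 12S and 16S went together across libraries. On log2 counts per 1000000 counts outside the mitochondrial genes, Pearson's r between them was 0.89 in the 16 livers (permutation test, p = 0.0002) and Spearman's rho was 0.66 (p = 0.00604), and 0.84 in the 16 fat libraries (permutation test, p = 0.00011), where rho was 0.79 (p = 0.00048). After Benjamini-Hochberg adjustment over 4 relations both p-values for r were 0.0004. Without the 2 libraries farthest from the median r was 0.54 in liver (permutation test, p = 0.0462) and 0.72 in fat (permutation test, p = 0.00376). Spearman's coefficient was then 0.50 in liver (permutation test, p = 0.0717), no longer past the threshold, and 0.69 in fat (permutation test, p = 0.00714), so the relation in liver rested in part on LFD replicates 7 and 8. In the 15 livers not over 40%, r was 0.66 (permutation test, p = 0.00665) and rho 0.59 (p = 0.0224), both past the threshold. In the 14 fat libraries not over 40%, r was 0.73 (permutation test, p = 0.00274) and rho 0.69 (p = 0.00717). Between the sum of the rRNAs and that of the 13 mitochondrial mRNAs no relation passed the threshold over all 16 libraries of a tissue. There r was -0.36 in liver (permutation test, p = 0.162, 0.216 adjusted) with rho 0.23 (p = 0.391), and 0.23 in fat (permutation test, p = 0.298, 0.298 adjusted) with rho 0.48 (p = 0.0613). Without the 2 farthest libraries r was 0.37 in liver (permutation test, p = 0.194) and 0.45 in fat (permutation test, p = 0.111), while rho was 0.43 in liver (permutation test, p = 0.13) and 0.78 in fat (permutation test, p = 0.00172). Between rRNAs and mRNAs in the 14 fat libraries not over 40%, r was 0.61 (permutation test, p = 0.0206) and rho 0.72 (p = 0.00451). In the 15 livers not over 40%, that r was 0.41 (permutation test, p = 0.134) and rho 0.49 (p = 0.0647). All these values share the library and its depth.

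The genes whose amounts ran most like those of the rRNAs were ranked by the mean of the liver and fat Spearman's rho over 16 libraries each, among 11906 genes tested in both tissues. The first and the fifth, with mean rho 0.68 and 0.46, have no name in the reference table. Between them came ZBTB20, a zinc finger transcription factor (0.58), ARHGEF39, a guanine nucleotide exchange factor (0.49), and CDCP2 (0.49). The median over all 11906 genes was -0.15. The 6 unnamed genes that filled the libraries over 40% came at ranks 8, 11, 39, 50, 68 and 165. Their mean rho ran from 0.23 to 0.43, where 0.13 was the 95th percentile of all genes. By tissue, their rho ran from 0.10 to 0.72 in liver and from -0.15 to 0.51 in fat. These genes were picked for high shares in single libraries. Among those libraries, liver LFD replicate 7 and fat LFD replicate 4 also had the highest rRNA shares of their tissues. Their likeness to the rRNAs is thus partly set by that choice, and the ranks are a description only.

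The other listed genes tied to mitochondrial expression did not pass the edgeR test between HFD and LFD pigs either. The background was the 0% given above for each tissue. The 13 mitochondrial mRNAs had a median log2 fold change of 0.020 in liver and 0.070 in fat, against 0.0032 and 0.017 over all genes tested, and 0 passed. ATP8 was the farthest from 0 in fat, at 0.99 (standard error 0.75, adjusted p = 0.898 from edgeR). Of 32 genes listed as mitochondrial RNA factors, 31 were tested in liver and 30 in fat, and 0 passed, with medians of 0.035 and -0.093. The list spans transcription, processing, modification and turnover of this RNA, assembly of its ribosome, and the nuclear regulators PPARGC1A and NRF1. DDX28, a helicase of large subunit assembly, was at 0.26 in liver (adjusted p = 0.839 from edgeR) and -0.41 in fat (adjusted p = 0.642 from edgeR). MRM3, which methylates 16S rRNA, was at 0.28 in liver (adjusted p = 0.839 from edgeR), and MRM2, another methyltransferase of 16S rRNA, at -0.33 in fat (adjusted p = 0.643 from edgeR). Of 65 mitochondrial ribosomal protein genes 64 were tested in each tissue and 0 passed, with medians of -0.0015 in liver and -0.13 in fat. The smallest adjusted p among them was 0.48, for MRPL36 in fat, a large subunit protein at -0.64 (standard error 0.18, edgeR).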

How the data were processed

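Total RNA of liver and fat tissue was sequenced by the authors as paired ends on a HiSeq system after library preparation with a TruSeq RNA kit. The submitters' processing notes name FastQC, STAR, RSEM and DESeq2 and the build Sscrofa11.1. Versions and the annotation are not given in the sources used here. The authors deposited raw counts, as whole numbers of reads for each of 31908 genes, in 1 table per tissue. The analysis took in all 48 columns. The liver counts of 2 runs per library were added. Groups follow the labels. Replicate numbers run in the order of the samples within each group, so a shared number does not by itself pair libraries. The deposited labels do not say that libraries come from separate pigs, so p-values measure the spread between these libraries. The paper gives 16 pigs, 8 per fat group, for its RNA sequencing. Liver and fat libraries may thus come from the same pigs. The tests between tissues and of the interaction took all 32 libraries as independent, so their p-values do not allow for shared pigs.

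Shares are counts divided by the library total. Their 95% Wilson intervals spanned 0.811% to 3.28% of the rRNA share to each side, which covers counting error only. Shares were compared between fat groups by exact two-sided permutation tests of log2 values, over 12870 assignments for all 16 libraries of a tissue, 6435 for 15 and 3432 for 7 against 7, and between tissues by permutation tests with 100000 resamples. All genes were fitted in R 4.3.3 with edgeR 4.0.16 (filterByExpr, TMM, robust quasi-likelihood test, Benjamini-Hochberg, threshold 0.05 on the adjusted p), with DESeq2 1.42.0 and limma 3.58.1 as alternatives. The edgeR fit was tested on simulated data. Other alternatives were total count and upper quartile scaling, TMM without the mitochondrial genes, no filter on low counts, at least 10 counts per gene in each library, a replicate block, each liver run alone and leaving out each library. Genes were named by rule: both rRNAs, the mitochondrial mRNAs, the 10 most counted genes of libraries over 40%, up to 4 examples of smallest p in each list, and the 5 genes most like the rRNAs. Likeness used a prior count of 0.5. Nuclear copies were found with minimap2 2.31. The name table matched 15029 of the genes. Members, lists and tests were chosen with earlier results of these data known.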

Additional observations from a re-analysis of the deposited data

Results flagged for a closer look

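Within each group of 8 libraries, the highest and lowest values of 7 measures of the rRNAs and of library makeup were compared with the others by Dixon's ratio. Of 28 sets of values, 15 had a library standing apart. Chance flags about 1 in 20 sets that are independent, but these are not: several measures share counts, and the 3 libraries and the 6 unnamed genes named here were picked from their shares of counts, so the number of sets is a description. Liver LFD replicate 7 stood apart in its 12S share (0.132%), 16S share (0.130%), rRNA counts per 1000 mitochondrial mRNA counts (106.3), rRNA share outside the 6 unnamed genes (0.418%) and share of the 10 most counted genes (47.2%). Fat LFD replicate 4 stood apart in the same 5 measures, with a 12S share of 0.169%, a 16S share of 0.250%, 51.4 rRNA counts per 1000 mitochondrial mRNA counts, an rRNA share of 0.639% outside the 6 genes and 42.2% of the counts on 10 genes. Fat HFD replicate 2 stood apart in 3 measures, with 120.3 rRNA counts per 1000 mitochondrial mRNA counts, an rRNA share of 0.354% outside the 6 genes and 80.9% of the counts on 10 genes. Its 12S and 16S shares of all counts did not stand apart from the other HFD fat libraries.

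Among the libraries not over 40%, 2 values stood apart. Liver HFD replicate 2 had an rRNA share of 0.0564% outside the 6 unnamed genes, against 0.0211% to 0.0353% in the other HFD livers. Fat LFD replicate 6 had 0.938 counts of 16S per count of 12S, against 1.48 to 1.87 in the other LFD fat libraries.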

How the results depend on the processing

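The tissue differences in the rRNA share and in the 16S to 12S ratio kept their direction and passed the threshold under all alternatives run. Leaving out 1 library at a time, they ran from -1.96 to -1.62 and from -0.91 to -0.79 (log2, liver minus fat). The HFD to LFD differences turned on single libraries. For the rRNA share in liver, leaving out 1 library gave -0.34 to 0.28, and without the library over 40% (LFD replicate 7) the value was 0.28. In fat the range was 0.20 to 0.63, and without both libraries over 40% it was 0.72. In edgeR the ranges were -1.40 to 0.21 for 12S and -1.45 to 0.17 for 16S in liver, and -0.45 to 0.71 and 0.041 to 1.05 in fat. They were -0.43 to 1.89 and 0.0068 to 2.22 for the interaction, where the lowest values came without liver LFD replicate 7 and the highest without fat LFD replicate 4. Without the libraries over 40% 12S and 16S were at 0.21 and 0.17 in liver, and 12S at 0.47 in fat. DESeq2 gave 0.17 and 0.15 in liver and 0.68 and 0.97 in fat after it had replaced the counts of liver LFD replicate 7 and fat LFD replicate 4, and -1.24, -1.21, -0.20 and 0.20 without that replacement, and limma-voom gave 0.29 for 12S in fat. Under total count scaling the median of all genes was 0.10 in liver and -0.10 in fat, against 0.0032 and 0.017 with TMM.

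Genes past the threshold numbered 6 in liver and 50 in fat with DESeq2 (6 and 46 without its replacement of outlying counts), 1 and 1 with limma-voom, 1 in liver with total count scaling and 1 without the low-count filter, and 1 in fat without the libraries over 40%. Leaving out 1 library gave 0 to 5 in liver and 0 to 2 in fat. Same-numbered HFD and LFD libraries had correlations of -0.093 to 0.096 in liver and 0.051 to 0.302 in fat. In fat 6 of 8 pairs were over 0.1, with a mean of 0.165 against -0.024 for other pairs, and 2 of 8 HFD libraries correlated best with the LFD library of their own number. Since not every pair was over 0.1, the numbers were not taken to pair libraries. With the replicate block 12S in fat was at 0.35, 16S at 0.71, 12S and 16S in liver at -0.070 and -0.15, and 0 genes passed in each tissue. The replicate block moved the interaction to 0.43 for 12S and 0.87 for 16S, neither past the threshold. Depth limited the rRNA shares less than the spread between libraries did, since the 95% intervals from counting reached at most 3.28% of the share to each side.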
